A study of Homo sapiens with 2 samples.

Results

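Aminoacyl-tRNA synthetases are the enzymes that join each amino acid to its tRNA. Their genes were examined in a ChIP-seq experiment on KLF7, a zinc-finger transcription factor. The set comprised 36 genes taken by symbol, of which 20 encode cytosolic enzymes (or, for FARSA and FARSB, the subunits of 1 enzyme) and 16, whose symbols end in 2, encode mitochondrial enzymes. A gene was counted at a peak when the annotation of a peak in the deposited table held its symbol exactly, or the same symbol with a final 1, which is the newer name. On this rule 8 of the 36 genes lay at 8 of the 1900 peaks, 1 peak for each gene. The cells were CAL27, an established line from a tongue cancer, infected with lentivirus to express KLF7 with a myc tag. The data comprised 1 ChIP library, precipitated with the anti-MYC antibody D3N8F, and 1 input library without antibody, both from the same myc-KLF7 cells. Neither library was replicated, and cells lacking the tagged protein are not analysed here. Fragments precipitated through the myc tag and fragments precipitated in any other way by the anti-MYC antibody therefore cannot be told apart. Whether this antibody also precipitated MYC made by the cells themselves was not tested. Values are given with intervals for counting error only, and no test between groups of genes was made.

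Charging of tRNA takes place separately in the cytosol and in mitochondria, which have their own ribosomes and tRNAs. Most of the mitochondrial enzymes are made from separate nuclear genes, whereas GARS and KARS each encode the enzyme of both compartments. The enzymes fall into class I and class II by the fold of the catalytic domain. In the cytosol, several of them are held with scaffold proteins in the multisynthetase complex. Genes for cytosolic synthetases are known targets of ATF4, the factor that raises transcription when amino acids are short, and of MYC, which binds the E-box. KLF7 belongs to a family that binds GC-rich sequence such as the GC box.

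The cytosolic genes at a peak were FARSB, IARS and YARS, 3 of 20 (15%, 95% Wilson interval 5.24 to 36%). The mitochondrial genes at a peak were EARS2, FARS2, MARS2, VARS2 and WARS2, 5 of 16 (31.2%, 14.2 to 55.6%). The intervals of both compartments overlapped. Over all 36 genes the share was 22.2% (11.7 to 38.1%), compared with 6.34% of the 20007 protein-coding genes of GENCODE v44, counted in the same way. This reference takes in every protein-coding gene and was not matched to the 36 genes for expression or promoter type. When only the distance was used, and the summit had to lie within 1000 bp of the gene start, the same 8 genes were found, compared with 4.26% of all protein-coding genes. IARS, YARS, EARS2, MARS2, VARS2 and WARS2 encode class I enzymes, whereas FARSB and FARS2 encode class II enzymes. Class I therefore had 2 of 10 cytosolic and 4 of 9 mitochondrial genes at a peak, and class II had 1 of 10 and 1 of 7. Of the 8 enzymes of the multisynthetase complex, IARS was the 1 with a peak.

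For 16 amino acids both a cytosolic and a mitochondrial gene were in the set, with EPRS, which charges glutamate and proline, counted under each. Phenylalanine was the 1 amino acid with a peak in both compartments, at FARSB and FARS2. Isoleucine and tyrosine had a peak at the cytosolic gene alone, while glutamate, methionine, valine and tryptophan had one at the mitochondrial gene alone. The other 9 amino acids had none. FARSA, which encodes the second subunit of the cytosolic phenylalanyl-tRNA synthetase, was without a peak.

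The summits of the peaks lay at the starts of the genes. The distance from the GENCODE v44 gene start to the summit was 25 bp at FARS2, 28 bp at MARS2, 32 bp at FARSB, 51 bp at WARS2 and 99 bp at VARS2, each into the gene. It was 176 bp at IARS, 364 bp at EARS2 and 727 bp at YARS. The median was 176 bp for the cytosolic and 51 bp for the mitochondrial genes. These genes have between 1 transcript (MARS2) and 42 (IARS) in the annotation, and at IARS, EARS2, YARS, VARS2 and WARS2 the transcript start nearest the summit was not the outermost one. Measured from the nearest transcript start of the gene, every summit was within 35 bp, with 2 bp at IARS, 13 bp at YARS and -3 bp, which is upstream, at EARS2. All 8 summits were thus within 50 bp of a transcript start, a limit chosen after the distances were seen. Of the 728 peaks with a summit within 1000 bp of any protein-coding gene start, 38.3% lay within 50 bp of a coding gene's transcript start.

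**Figure D1:**
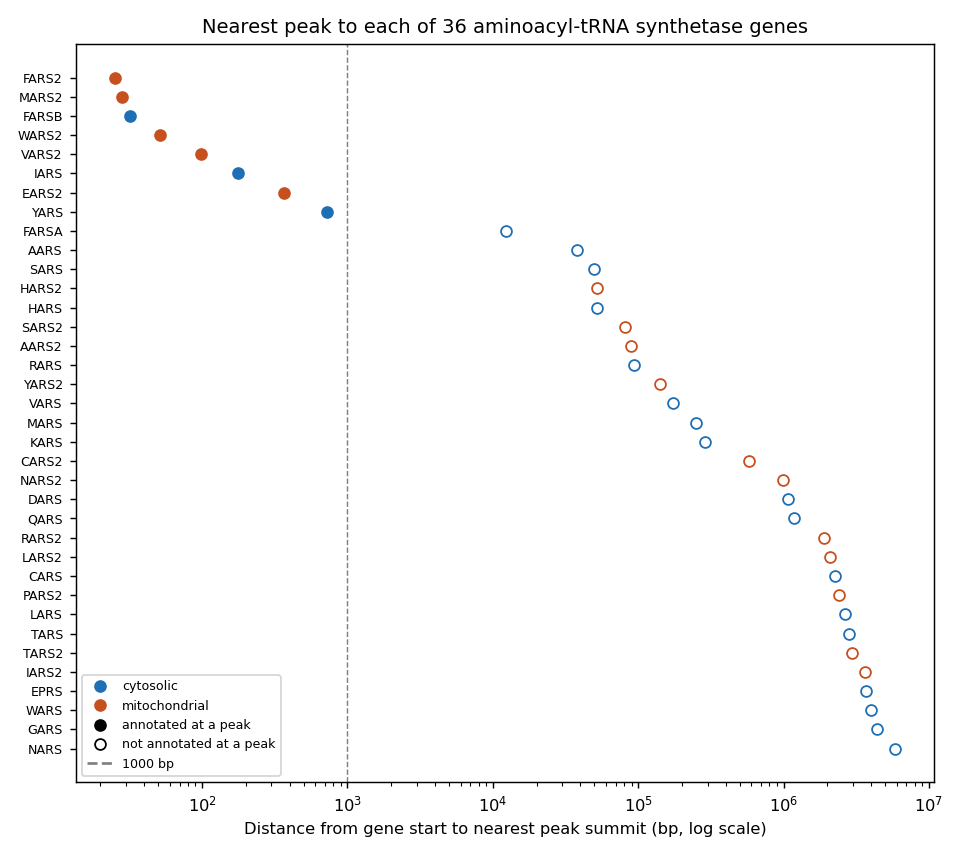
Distance in bp (log scale) from the GENCODE v44 start of each of the 36 genes to the nearest peak summit, with blue for cytosolic, orange for mitochondrial, and filled points for genes annotated at a peak. The 8 filled points lie between 25 and 727 bp, and the nearest open point, FARSA, lies at 12271 bp.

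The other 28 genes had no peak in their annotation, 17 cytosolic and 11 mitochondrial. The cytosolic genes were AARS, CARS, DARS, EPRS, FARSA, GARS, HARS, KARS, LARS, MARS, NARS, QARS, RARS, SARS, TARS, VARS and WARS. The mitochondrial genes were AARS2, CARS2, HARS2, IARS2, LARS2, NARS2, PARS2, RARS2, SARS2, TARS2 and YARS2. The nearest summit to any of their starts was 12271 bp upstream of FARSA. The next was 37872 bp downstream of the AARS start. For 20 of the 28 genes the nearest summit was more than 100000 bp away, and for 14 it was more than 1000000 bp away. There was a gap between 727 and 12271 bp in which no gene of the set had its nearest summit. The table lists peaks with a q-value under 0.05 only, the lowest pileup among them was 7 fragments, and signal below that limit was not analysed here.

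The strongest of the 8 peaks by fold enrichment was at MARS2 (ENSG00000247626), the gene for mitochondrial methionyl-tRNA synthetase, on chromosome 2 from 197705258 to 197705544 (GRCh38). Pileup counts the ChIP fragments that cover a summit, and fold enrichment divides it by the local background rate after 1 is added to each. At MARS2, 15 fragments covered the summit (95% exact Poisson interval 8.4 to 24.7), the background rate was 1.08, and fold enrichment reached 7.70 (4.52 to 12.4 from the interval of the pileup). The -log10 q was 8.84, which ranked 415 of the 1900 peaks, and the rank by fold enrichment was 146. MARS2 has 1 exon, and the summit lay in its 5' UTR.

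The EARS2 peak (ENSG00000103356, mitochondrial glutamyl-tRNA synthetase), on chromosome 16 from 23557248 to 23557524, was covered by 15 fragments at the summit, with fold enrichment of 7.20 (4.23 to 11.6). EARS2 and UBFD1 are transcribed in opposite directions from this region. The peak was annotated to the 5' UTR and an exon of both genes, with UBFD1 as the nearest gene, and the summit lay upstream of the canonical EARS2 transcript, at -17 bp. The WARS2 peak (ENSG00000116874, mitochondrial tryptophanyl-tRNA synthetase), on chromosome 1 from 119140525 to 119140824, was covered by 12 fragments (6.20 to 21.0), with fold enrichment of 6.56 (3.63 to 11.1). It had the lowest background rate of the 8, 0.982, and its summit lay in the first coding exon. The annotation also placed it in the promoter of AL359915.2.

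The FARS2 peak (ENSG00000145982, mitochondrial phenylalanyl-tRNA synthetase) was the longest of the 8, with 775 bp on chromosome 6 from 5260387 to 5261161, compared with a median of 246 bp for all peaks. Its pileup was 13 (6.92 to 22.2) and its fold enrichment was 5.45 (3.08 to 9.04). The table gave LYRM4, which encodes a mitochondrial iron-sulfur cluster protein and starts on the opposite strand, as the nearest gene, and the peak was listed in the LYRM4 promoter. The FARS2 start depends on the annotation. The RefSeq gene begins 11135 bp upstream of the summit, while the canonical GENCODE transcript places it upstream of its start, at -444 bp.

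The weakest of the 8 peaks was at VARS2 (ENSG00000137411, mitochondrial valyl-tRNA synthetase), on chromosome 6 from 30914158 to 30914401. The summit was covered by 9 fragments (4.12 to 17.1), fold enrichment was 4.32 (2.21 to 7.81) and the q-value was 0.00547. Its rank by q-value was 1762.5, the mean rank of tied peaks. It was the 1 peak of the 8 that was lost with a q-value under 0.001, a pileup of at least 10 or a fold enrichment of at least 5. The table placed the VARS2 start 6062 bp upstream of this summit, whereas the canonical GENCODE transcript starts 66 bp upstream of it. VARS2 lies in the gene-dense major histocompatibility region.

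Among the cytosolic genes, the YARS peak (ENSG00000134684, tyrosyl-tRNA synthetase) had the highest fold enrichment, 6.83 (4.01 to 11.0), with 15 fragments, on chromosome 1 from 32817221 to 32817487. It lay in the 5' UTR of YARS and in the annotated promoter of S100PBP, the nearest gene in the table, whose start was 537 bp from the summit. The IARS peak (ENSG00000196305, isoleucyl-tRNA synthetase), on chromosome 9 from 92293578 to 92293949, had the highest pileup of the 8, 17 fragments (9.90 to 27.2), and the highest background rate, 1.93, and its fold enrichment was 6.15 (3.72 to 9.64). The summit was in the 5' UTR of exon 1. MIR3651 and SNORA84, small RNA genes, were given promoter entries at the same peak. The FARSB peak (ENSG00000116120, the beta subunit of phenylalanyl-tRNA synthetase), on chromosome 2 from 222655561 to 222656110, was 550 bp long and was covered by 15 fragments, with fold enrichment of 5.55 (3.26 to 8.93) over a background rate of 1.88. Its summit lay in the first coding exon.

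Cytosolic and mitochondrial peaks covered overlapping ranges. The pileup was 15 to 17 fragments at the 3 cytosolic peaks, with a median of 15, and 9 to 15 at the 5 mitochondrial peaks, with a median of 13. Fold enrichment was 5.55 to 6.83 (median 6.15) at the cytosolic and 4.32 to 7.70 (median 6.56) at the mitochondrial peaks. The order of the medians was thus opposite for both measures, and the background rate was 1.34 to 1.93 at the cytosolic and 0.982 to 1.57 at the mitochondrial peaks. The Poisson intervals of the pileup overlapped for all 28 pairs of the 8 peaks, so no order among them was resolved by these counts. Set against the 728 peaks near protein-coding starts, whose median was 13 for pileup and 5.26 for fold enrichment, 7 of the 8 peaks were above the median fold enrichment, all but VARS2. The fold enrichment intervals of all 8 peaks included 5.26, so none of them was resolved from that median. None of the 8 peaks was in a dense cluster of peaks. Of the 2832 words of 31 bases under them, 0 occurred elsewhere in GRCh38 when its alternate contigs were left out.

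**Figure D2:**
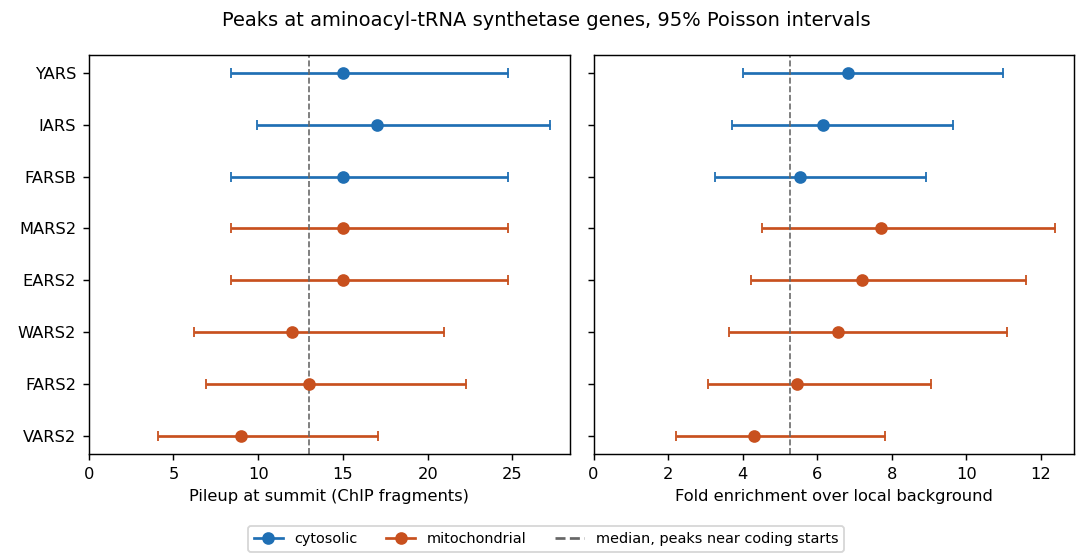
Pileup at the summit in ChIP fragments and fold enrichment over the local background for the 8 peaks, with exact 95% Poisson intervals, blue for cytosolic and orange for mitochondrial genes. The dashed lines are the medians of peaks near protein-coding starts, 13 and 5.26, and all of the intervals overlap one another.

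No gene of the set had a promoter entry of its own, since the annotation listed the 8 peaks as exon or 5' UTR of these genes. This was 0 of 20 cytosolic (95% Wilson upper limit 16.1%) and 0 of 16 mitochondrial genes (upper limit 19.4%), compared with 2.13% of all protein-coding genes. When 5' UTR entries were also accepted, IARS, YARS, EARS2 and FARS2 were counted, 2 in each compartment, compared with 3.21% of all protein-coding genes. The 4 genes left, FARSB, MARS2, VARS2 and WARS2, had exon entries alone, at summits 28 to 99 bp into the gene.

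Some of the starts were shared with another gene. The annotation of 3 of the 8 peaks named another protein-coding gene, S100PBP at YARS, UBFD1 at EARS2 and LYRM4 at FARS2, and the same 3 had another protein-coding start within 1000 bp of the summit. Of the 1171 peaks that named a protein-coding gene, 14.7% named 2 or more. For these 3 peaks, fragments belonging to one start cannot be told apart from those of the other. Among all 36 genes, 10 had another protein-coding start within 1000 bp of their own, and 2 of these, EARS2 and FARS2, had a peak, compared with 6 of the 26 without such a neighbour. Among all protein-coding genes, 17.4% had such a neighbour, and a summit lay within 1000 bp of the start for 7.66% of these and for 3.54% of the others. HARS and HARS2, whose starts are 107 bp apart on opposite strands, had no peak, and the nearest summit was about 52 kb away, at 51989 bp from the HARS start. No peak named both a cytosolic and a mitochondrial gene of the set.

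**Figure D3:**
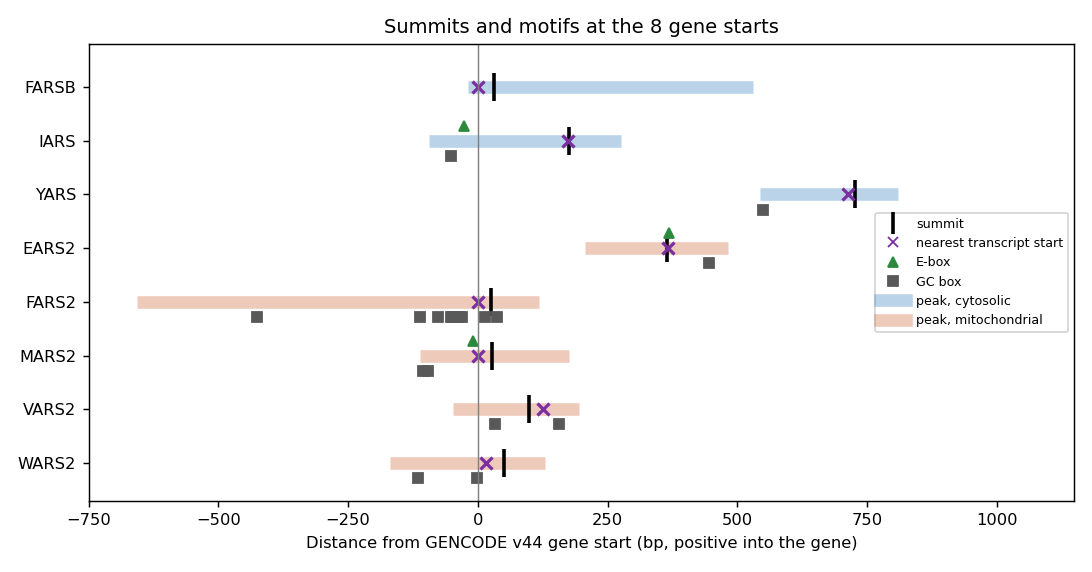
Position of each of the 8 peaks (bars), its summit, the nearest transcript start and the E-box and GC-box sequences under the peak, in bp from the GENCODE v44 gene start and positive into the gene. At YARS, EARS2 and IARS the summit and the nearest transcript start lie together 176 to 727 bp into the gene, and at FARS2 the GC boxes run through the summit.

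The sequences under the summits were searched for a list of motifs on both strands. Within 100 bp of the summit, CACGTG, the E-box, was present at EARS2 and MARS2, 2 of 8 peaks, compared with 25.5% of the 728 peaks near protein-coding starts. At EARS2 it was centred 4.5 bp from the summit and at MARS2 36.5 bp from it. IARS held a copy inside the peak but farther out, 202.5 bp upstream of the summit. These copies are shown with the E-box in capitals, since their place relative to the summit differed between the genes, and all are on the plus strand of GRCh38 (chr16:23557348-23557377, chr2:197705346-197705375 and chr9:92293866-92293895).
EARS2: gatggaatagcaCACGTGggcttctccctg
MARS2: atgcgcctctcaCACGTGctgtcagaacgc
IARS: gttttgcgcctcCACGTGgaaaacgaacca

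CACGCG, an E-box variant, was present at IARS, YARS, FARS2 and WARS2, 4 of 8 peaks (50%, 21.5 to 78.5%), compared with 28.0% of the peaks near protein-coding starts. None of these held CACGTG within 100 bp. Either sequence was thus present at 6 of 8 peaks (75%, 40.9 to 92.9%), compared with 47.9%, which is inside that interval. This combination was formed after the single counts were seen. FARSB and VARS2 had neither. The copy nearest the summit was 11.5 bp from it at YARS, 13.5 bp at WARS2, 23.5 bp at FARS2 and 53.5 bp at IARS. The WARS2 copy is shown as an example close to the summit, with the variant in capitals (plus strand, chr1:119140602-119140631).
WARS2: agctccagcgctCACGCGctttccgcattg

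The GC box GGGCGG was found within 100 bp of the summit at EARS2, FARS2, VARS2 and WARS2, 4 of 8 peaks and all of them mitochondrial. This was 50% (21.5 to 78.5%), compared with 72.1% of the peaks near protein-coding starts. MARS2, IARS, YARS and FARSB had none in this window. Inside the whole peak it was also present at IARS, YARS and MARS2, which left FARSB without one. FARS2 had the most copies, 6 within 100 bp of the summit and 9 in the peak. The longer GGGGCGGGG, which contains GGGCGG, was present within 100 bp at FARS2 and VARS2 (25%, 7.15 to 59.1%), compared with 21.2%. FARS2 had a copy 11.5 bp to either side of the summit, and the upstream one is shown in capitals as the closest GC box in the set (plus strand, chr6:5261043-5261072).
FARS2: cacgcggcgggaGGGCGGggaaataagagg

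The core of the site for NRF1, a regulator of genes for mitochondrial proteins, was searched as GCGC, any 2 bases and GCGC again. It was found at FARSB, MARS2 and VARS2, 3 of 8 peaks (37.5%, 13.7 to 69.4%), compared with 9.75% of the peaks near protein-coding starts. The copy at MARS2 was centred 50.5 bp from the summit and lay beside the E-box, and the copy at FARSB overlapped the gene start. Both are shown with this sequence in capitals on the plus strand (chr2:197705332-197705361 and chr2:222656081-222656110).
MARS2: cgacccggctGCGCATGCGCctctcacacg
FARSB: cgaactcactGCGCCTGCGCagcgagctga
CCGGAAG, the ETS core, was present at EARS2 and MARS2 (25%, 7.15 to 59.1%), compared with 13.7%. CCAAT, the NF-Y core, was present at IARS, EARS2, MARS2 and WARS2 (50%, 21.5 to 78.5%), compared with 15.7%.

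Of the motifs searched, the rarest at peaks near protein-coding starts was TGATGNAA. This is the core of the element through which ATF4 and C/EBP factors act on genes for amino acid supply. It was found within 100 bp of the summit at IARS, YARS and FARS2, 3 of 8 peaks (37.5%, 13.7 to 69.4%), compared with 9 of the 728 peaks near protein-coding starts (1.24%) and 1.35% of all 1854 peaks on assembled chromosomes. The 9 peaks include these 3. The distance from the summit was 28.5 bp at IARS, 47.5 bp at YARS and 81.5 bp at FARS2. In each of the 3 the N was C. TGATGCAA was present at 6 of the 728 peaks in all, so these 3 genes made up 3 of the 6, which was counted after the letters were seen.

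The same element was then searched in the promoter windows of RefSeq, which run from 250 bp before to 50 bp after 1 start per gene (GRCh38.p14). The table held a window for 30 of the 36 genes, 16 cytosolic and 14 mitochondrial. DARS, LARS, VARS, YARS, AARS2 and VARS2 had none. The start of the window was within 50 bp of a GENCODE transcript start of the gene for 29 of the 30, but it was not always the gene start used for the distances. It lay 14202 bp into GARS, 12623 bp into MARS and 7088 bp into CARS2, and within 1000 bp of the gene start for the others. TGATGNAA was present in 6 of 16 cytosolic windows (37.5%, 18.5 to 61.4%), at AARS, CARS, IARS, MARS, NARS and TARS. It was present in 1 of 14 mitochondrial windows (7.14%, 1.27 to 31.5%), at YARS2, compared with 2.54% of 15345 protein-coding windows. The intervals of both compartments overlapped. The 6 cytosolic copies all read TGATGCAA, which was present in 0 of 14 mitochondrial windows and 0.678% of all windows. Of these 6 genes IARS had a peak, while AARS, CARS, MARS, NARS and TARS did not. Copies from the windows, other than that of NARS, and the FARS2 copy, which lies under the peak and outside the FARS2 window, are shown with the element in capitals, on the strand on which it reads as TGATGNAA, because the bases around it can be compared between genes with and without a peak. IARS (chr9:92293692-92293721), AARS (chr16:70289675-70289704) and CARS (chr11:3057407-3057436) are on the plus strand. FARS2 (chr6:5261132-5261161), MARS (chr12:57488053-57488082), TARS (chr5:33440956-33440985) and YARS2 (chr12:32756076-32756105) are on the minus strand.
IARS: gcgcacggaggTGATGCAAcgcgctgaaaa
FARS2: ctctccgTGATGCAActgcacgtccctcga
AARS: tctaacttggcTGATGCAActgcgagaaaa
CARS: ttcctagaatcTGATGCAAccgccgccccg
MARS: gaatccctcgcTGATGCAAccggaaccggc
TARS: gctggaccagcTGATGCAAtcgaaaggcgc
YARS2: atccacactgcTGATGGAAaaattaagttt

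For every other motif, too, the intervals of both compartments overlapped. CACGTG was present in 1 of 16 cytosolic windows, at IARS, and in 3 of 14 mitochondrial windows, at CARS2, EARS2 and MARS2, compared with 8.89% of all protein-coding windows. Of the 4 genes with this sequence, IARS, EARS2 and MARS2 had a peak and CARS2 did not. YARS and VARS2, which had a peak but no window, had no CACGTG anywhere in the peak. Among the 24 windows of genes without a peak, CACGTG was present at CARS2 alone (4.17%). GGGCGG was present in 11 of 16 cytosolic and 10 of 14 mitochondrial windows, compared with 59.2% of all windows, and in 5 of 6 windows of genes with a peak and 16 of 24 of genes without. CCGGAAG was present in 8 of 16 cytosolic and 6 of 14 mitochondrial windows, compared with 14.4% of all windows. CCAAT was present in 7 of 16 cytosolic and 9 of 14 mitochondrial windows, compared with 36.6%. CACGCG was present in 2 and 4 of these windows, compared with 14.9%, the NRF1 core in 3 and 3, compared with 12.1%, and GGGGCGGGG in 5 and 6, compared with 22.8%. The GC content of the windows ranged from 46.7% at FARSB to 73.0% at FARS2, both genes with a peak. Its median was 64.7% in the windows of genes with a peak, 61.8% in those without and 63.0% in all windows.

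**Figure D4:**
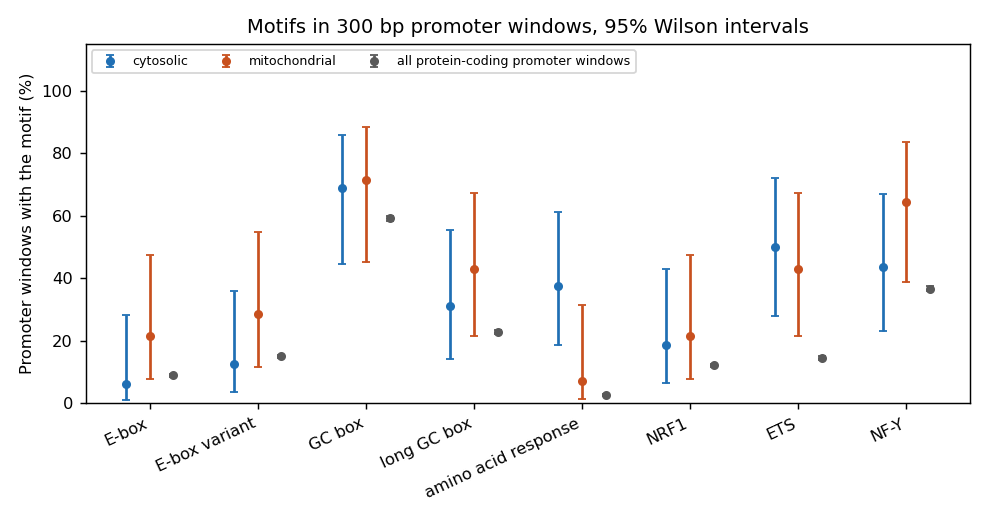
Share of 300 bp RefSeq promoter windows (percent) that hold each motif, with 95% Wilson intervals, for 16 cytosolic genes (blue), 14 mitochondrial genes (orange) and all 15345 protein-coding genes (grey). The amino acid response core is present in 37.5%, 7.14% and 2.54% of these windows, and the ETS core in 50%, 42.9% and 14.4%.

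Genes that act beside the synthetases were examined as lists. Of the 3 scaffold proteins of the multisynthetase complex (AIMP1, AIMP2 and EEF1E1), AIMP2 had a peak, with 17 fragments at the summit and fold enrichment of 5.60. Of 10 genes for other charging and proofreading enzymes, 0 had a peak (95% Wilson upper limit 27.8%). Of 21 genes for tRNA maturation, 4 had a peak (19.0%, 7.67 to 40.0%). These were XPOT, which exports tRNA from the nucleus, with a fold enrichment of 6.81 and a summit 100 bp upstream of the start, ELAC2, which trims the 3' end of tRNA precursors, with 6.44, TSEN34, a subunit of the tRNA splicing endonuclease, with 6.47, and POP1, a subunit of RNase P, with 5.45. Of 15 genes of the amino acid response, ATF4 and SLC3A2 had a peak (13.3%, 3.74 to 37.9%). The AIMP2, POP1 and TSEN34 peaks were each also listed in the promoter of another protein-coding gene, and AIMP2 itself had an exon entry alone. The ATF4 peak was in an intron, with the summit 1359 bp into the gene, farther than at any of the 8 synthetase genes. It had 26 fragments (fold enrichment 9.36), above each of the 8 synthetase peaks. No interval was calculated for the ATF4 peak, and whether it differed from them was not tested. SLC3A2, the heavy chain of amino acid transporters, had peaks with fold enrichments of 7.72 and 5.71. The first was also listed in the promoters of non-coding RNA genes, and the second lay in an exon, 25375 bp into SLC3A2. CACGTG was present within 100 bp of the summit at AIMP2 and POP1, compared with 25.5% of the peaks near protein-coding starts. GGGCGG was present in this window at AIMP2, XPOT, POP1, TSEN34 and ATF4, compared with 72.1%. ELAC2 and both SLC3A2 peaks had neither. The intervals of all these lists overlapped those of the cytosolic and mitochondrial synthetase genes. The share of all protein-coding genes with a peak, 6.34%, was inside the intervals of the scaffold, proofreading and amino acid response lists. It was below the interval of the tRNA maturation list.

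**Figure D5:**
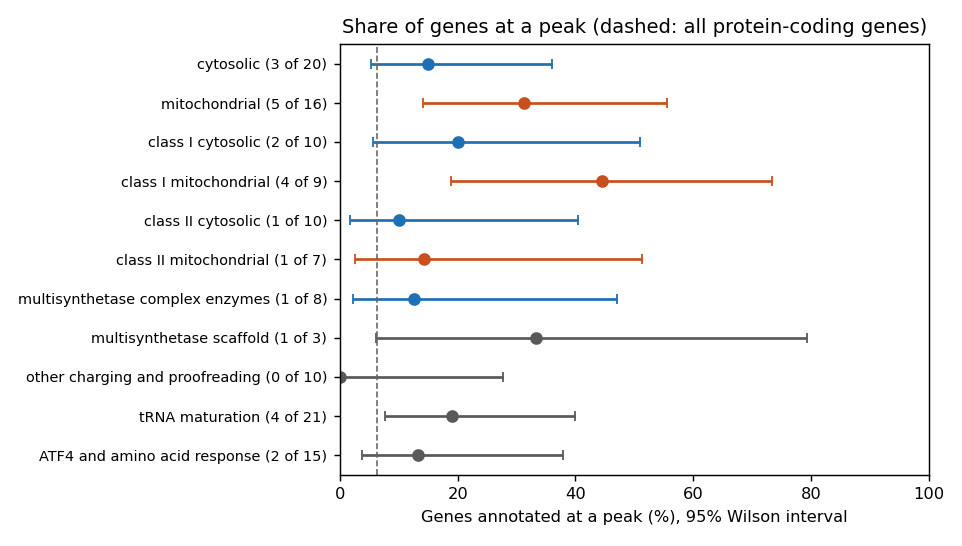
Share of genes annotated at a peak (percent) in each group, with 95% Wilson intervals and the number of genes in brackets. The dashed line is the share of all protein-coding genes, 6.34%, and the groups of synthetase genes range from 10% in class II cytosolic to 44.4% in class I mitochondrial.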

How the data were processed

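ChIP-seq of CAL27 cells expressing myc-KLF7 was analysed, with 1 ChIP and 1 input library. The authors trimmed the reads with Trimmomatic, mapped them with BWA, removed PCR duplicates with Samtools and called peaks with MACS2 at a q-value of 0.05. The genome build is hg38 per the labels, which is GRCh38, the build of the reference used. Pileup, as deposited, is a signal that counts ChIP fragments at a summit. The deposited fold enrichment is the ratio of pileup to local background rate after 1 is added to each, and -log10 q is the authors' adjusted Poisson p-value. A further column, -log10 p, was not used (1 column). The table gives no read totals, and its median pileup of 13 limits the precision of each peak.

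The local background rate was obtained by inverting that ratio. Peak entries were matched to GENCODE v44 by symbol, then by unambiguous RefSeq synonym, and 1270 of 1706 symbols matched a protein-coding gene. The 36 genes all matched. Gene starts were taken from GENCODE v44. Motifs were searched on both strands within 100 bp of the summit in the 1854 peaks on chromosomes 1 to 22, X and Y, and in 1 RefSeq promoter window per gene. A dense cluster was at least 5 peaks with neighbours within 100 kb (100000 bp). Words of 31 bases were counted over GRCh38 without alternate contigs. The motif search and the intervals were tested on simulated data.

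The genes and lists were chosen with earlier results of these data known, and each of the 36 genes is named. Other genes are named where they share a peak with these or stand in a list with a peak. Intervals are 95% Wilson intervals for shares and exact Poisson intervals for pileups, and cover counting error only. Genes and peaks are not replicates, so no test was made. Counts that rest on 1 further gene are not reported here. Python 3.11.15 was used with numpy 2.4.6, pandas 2.3.3, scipy 1.17.1, numba 0.67.0 and matplotlib 3.10.9.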

Additional observations from a re-analysis of the deposited data

How the results depend on the processing

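Of 53 alternative values for 16 results, 46 stayed within their limits (1.5 times for a count, the range of the peaks for a median), 7 moved and 0 reversed. Many of the 46 could not have moved, so this tally is no measure of robustness. Each gene had 1 peak, no peak named both compartments, and the stricter limits acted on promoter counts of 0. GARS and KARS, left out in 1 alternative, had no peak, and the median of fewer peaks stays within the range of all. With the gene required to be the nearest one in the table, mitochondrial genes at a peak fell to 3, and the cytosolic count was 2, compared with 4.49% of all protein-coding genes. Accepting 5' UTR entries gave 2 cytosolic and 2 mitochondrial genes in place of 0 with a promoter entry. From the nearest transcript start, chosen after seeing the data, the cytosolic median summit distance was 13 bp in place of 176 bp. Anywhere in the peak, CACGTG was present at 1 cytosolic peak and GGGCGG at 2, in place of 0, because the region searched was longer there. Within 50 bp of the summit, GGGCGG was left at 1 mitochondrial peak, FARS2. Stricter limits on the q-value, pileup or fold enrichment removed VARS2 or no gene. No paired analysis was possible because each group has 1 library. The number of fragments, 9 to 17 a peak, limits every comparison between peaks.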
